A study of Mus musculus with 4 samples.

Results

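The genes described here are 32 listed genes of the red cell lineage and of haem synthesis, matched by symbol. They comprise globins, the enzymes and a carrier of haem synthesis, the erythropoietin and transferrin receptors, proteins of the red cell membrane and its skeleton, and a set of enzymes and factors. A row in the count table was found for 31 of them, out of 26286 genes in all, and all 31 passed the filter on low counts. Hbb-b2 had no row and was not analysed here. The RNA came from LSK cells, the Lin-Sca+Kit+ fraction of bone marrow of C57BL/6 mice, the fraction where blood stem cells and multipotent progenitors are found. There were 2 libraries labelled Hhex-deleted and 2 wild-type libraries. Hhex is a transcription factor of the homeobox class, and the series is titled for its role, by way of Cdkn2a, in stem cell self-renewal and in haematopoiesis under stress. How Hhex was deleted, the age of the mice and whether each library came from a separate mouse are points on which the sources used here say nothing, so the spread behind every p-value is that of these libraries alone.

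Red cells arise from bone marrow progenitors under the hormone erythropoietin, which acts through its receptor Epor. As they mature they take up iron through the transferrin receptor Tfrc, make haem in a chain of enzyme steps that begins and ends in the mitochondrion, assemble haemoglobin from alpha and beta globin chains, and build a membrane held by a spectrin skeleton. LSK cells lie before the erythroid fate is fixed, and the sort removes cells that carry lineage markers of mature blood cells.

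The study compared LSK cells labelled as lacking Hhex with wild-type LSK cells. Total counts per library lay between 27871827 and 29501591. Levels are given as CPM, read counts scaled to a common library total adjusted by TMM factors. Log2 fold changes put the labelled Hhex-deleted group over the wild-type group and come from the quasi-likelihood test of edgeR with Benjamini-Hochberg adjustment over all 14912 tested genes and a threshold of 0.05. Hhex itself had 179 and 188 CPM in the libraries labelled Hhex-deleted, against 127 and 115 CPM in wild-type libraries, which is 0.60 ± 0.09 on the log2 scale (SE, adjusted p = 0.0271 by edgeR). A count over a whole gene includes exons outside a deleted part, so it does not check the deletion, and groups are named as labelled. Labelled Hhex-deleted replicate 1 stood apart in sex markers, with 2662 CPM of Xist against 1.89 to 2.66 CPM in the other libraries, and 0.34 CPM of the Y-linked Ddx3y against 124 to 138 CPM. The 2 libraries labelled Hhex-deleted therefore did not come from 1 mouse, while for the wild-type libraries the spread may be technical. Marker lists gave summed levels of 2121 and 2675 CPM in the libraries labelled Hhex-deleted, against 2183 and 2089 CPM in wild-type libraries, for 10 genes of LSK cells, Kit, Cd34 and Flt3 among them. For 10 genes of late erythroid cells the sums were 340 and 471 CPM in labelled Hhex-deleted libraries, against 306 and 407 CPM in wild-type libraries. None of these genes was at 0, and 7 of the 10 late erythroid genes are themselves members.

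Haem synthesis starts with an enzyme that has an erythroid form, Alas2, and a form used in most tissues, Alas1. Below are the start regions of genes whose values the results turn on, from 250 bases before to 50 bases after the annotated start, from RefSeq on the mouse build GRCm38.p6. They are shown because the globins and Alas2 had the same order of libraries, Epor and Ermap were high in replicate 1 where the globins were low, and Alas1 was the one gene with both libraries labelled Hhex-deleted below wild-type. Capitals mark the letters AGATAA or TGATAA on either strand, forms of the site read by GATA factors, which direct erythroid genes.
Hba-a1 (chr11:32283422-32283721, + strand): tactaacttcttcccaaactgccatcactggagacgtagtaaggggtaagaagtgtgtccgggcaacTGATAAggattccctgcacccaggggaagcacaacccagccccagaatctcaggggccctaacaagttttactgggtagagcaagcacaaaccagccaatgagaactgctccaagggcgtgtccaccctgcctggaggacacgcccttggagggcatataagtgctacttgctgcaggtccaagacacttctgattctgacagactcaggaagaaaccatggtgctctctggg
Alas2 (chrX:150547167-150547466, + strand): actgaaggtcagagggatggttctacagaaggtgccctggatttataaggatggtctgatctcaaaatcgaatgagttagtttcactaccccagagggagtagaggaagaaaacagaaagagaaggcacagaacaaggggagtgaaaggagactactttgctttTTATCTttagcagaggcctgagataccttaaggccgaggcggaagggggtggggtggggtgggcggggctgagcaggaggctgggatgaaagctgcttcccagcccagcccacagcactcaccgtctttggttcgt
Alas1 (chr9:106247905-106248204, - strand): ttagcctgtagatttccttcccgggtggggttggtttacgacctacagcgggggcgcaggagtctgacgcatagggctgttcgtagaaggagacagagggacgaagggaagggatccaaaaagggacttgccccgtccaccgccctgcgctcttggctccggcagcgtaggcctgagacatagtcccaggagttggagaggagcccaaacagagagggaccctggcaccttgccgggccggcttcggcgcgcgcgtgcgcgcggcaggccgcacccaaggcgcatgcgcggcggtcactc
Epor (chr9:21963527-21963826, - strand): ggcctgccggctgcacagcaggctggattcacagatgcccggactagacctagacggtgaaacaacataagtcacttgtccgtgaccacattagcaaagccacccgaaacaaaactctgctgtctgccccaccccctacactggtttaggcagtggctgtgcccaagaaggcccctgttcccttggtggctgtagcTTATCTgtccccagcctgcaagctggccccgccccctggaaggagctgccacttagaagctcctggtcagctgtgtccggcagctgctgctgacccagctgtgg
Ermap (chr4:119189946-119190245, - strand): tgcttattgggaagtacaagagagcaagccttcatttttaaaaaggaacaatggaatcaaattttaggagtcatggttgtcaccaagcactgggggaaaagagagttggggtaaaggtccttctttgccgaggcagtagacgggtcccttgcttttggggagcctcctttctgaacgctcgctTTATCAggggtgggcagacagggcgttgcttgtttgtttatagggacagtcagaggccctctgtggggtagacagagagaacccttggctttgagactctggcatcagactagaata
Matches to these letters began 183 bases before the start in Hba-a1, 86 in Alas2, 54 in Epor and 67 in Ermap, and both windows of Alas1, of which 1 is shown, held none. Windows were found for 23 members, 28 windows in all because some genes have more than 1 start. Of these 28 windows 12 held a match, 42.9%, against 18.6% of all 32851 windows of the same length. The members with a match were Hba-a1, Hba-a2, Alas2, Cpox, Uros, Epor, Ermap, Rhag, Rhd, Icam4, Hemgn and Trim10. The letters CCACACCC, CCCCACCC or CCACGCCC, forms of the site read by Klf factors, were searched on both strands in the same way and were in 9 of the 28 windows, 32.1%, and in 17.4% of all windows. A match describes the letters and is not a measured binding site, and these windows were not used to choose the genes.

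Across the 31 members the comparison gave 1 call. Car2 rose, and no member fell. Of all tested genes 2.6% were called, 1.48% higher and 1.12% lower, so a single call among 31 genes lies near this background. At an unadjusted p under 0.05 there were 4 members higher, Car2, Rhag and Cpox among them, and 1 lower (Alas1). That cut took 7.59% of all tested genes as higher and 8.23% as lower. The fitted log2 fold changes ran from -0.86 for Alas1 to 0.84 for Tspo2. Of the 31 values 28 lay above 0 and 3 below, with a median of 0.28. Over all 14912 tested genes 7270 lay above 0, with a median of -0.01. The 31 values come from the same 4 libraries and are not independent. Labelled Hhex-deleted replicate 1 was the highest library for 21 of the 31, against 22.7% of all tested genes. The groups did not overlap for 9 members that were higher in the libraries labelled Hhex-deleted and for 1 that was lower. Over all tested genes 21.9% did not overlap with the higher values in the libraries labelled Hhex-deleted, and 23.7% did not overlap with the lower values there.

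**Figure D1:**
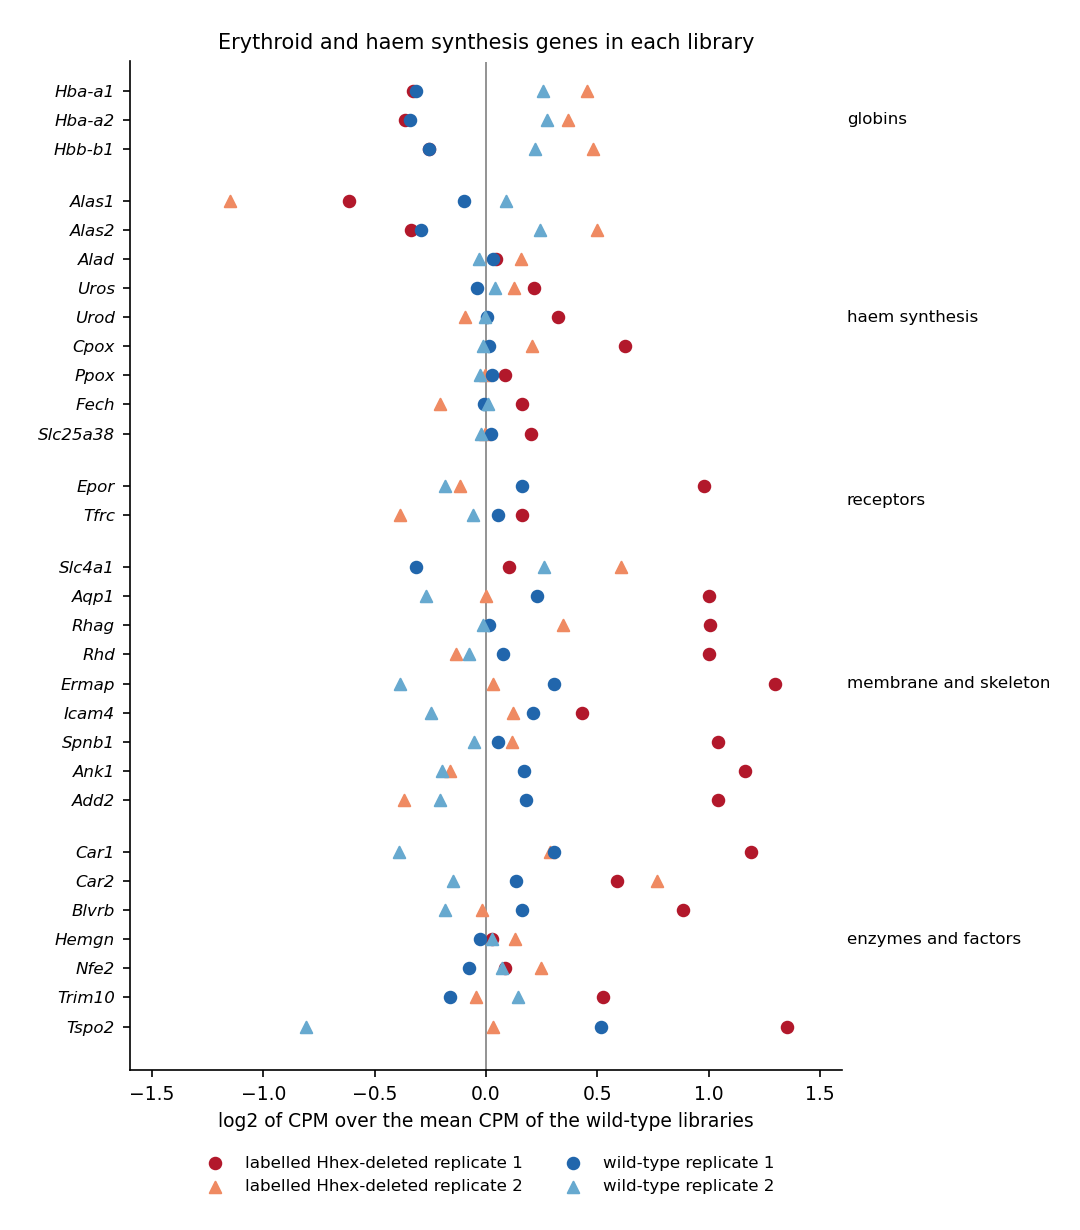
Level of each member named in the text in each library, as the log2 of its CPM over the mean CPM of the wild-type libraries (x axis), with genes grouped by role down the page. Red and orange points are the libraries labelled Hhex-deleted and blue points the wild-type libraries, circles replicate 1 and triangles replicate 2. For most membrane and skeleton genes the circle of labelled Hhex-deleted replicate 1 lies alone at the right, while for the globins and Alas2 the triangles of both groups lie to the right of the circles.

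Among the globins, the libraries of the same number lay closer than the libraries of the same group. Hba-a1, an alpha globin gene, had 111 and 191 CPM in the libraries labelled Hhex-deleted, against 112 and 167 CPM in wild-type libraries. Hba-a2, the other adult alpha globin gene, had 28.4 and 47.2 CPM in labelled Hhex-deleted libraries, against 28.9 and 44.2 CPM in wild-type libraries. In both genes the groups overlapped almost fully, and replicate 2 was the high library in each group. Hbb-b1, an adult beta globin gene, repeated this order with 67.2 and 112 CPM in the libraries labelled Hhex-deleted, against 67.1 and 93.4 CPM in wild-type libraries. The log2 fold changes were 0.11 ± 0.37 for Hba-a1, 0.05 ± 0.35 for Hba-a2 and 0.16 ± 0.33 for Hbb-b1 (SE), with edgeR adjusted p-values of 0.937, 0.975 and 0.895. The alpha globin transcripts of GENCODE differ at 1 of 538 aligned bases and share an identical run of 415 bases, so reads could be shared between the copies and the split between Hba-a1 and Hba-a2 is uncertain. Per kilobase of gene length, Hba-a1 stood at 271 CPM in the libraries labelled Hhex-deleted and 250 CPM in wild-type libraries.

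The haem synthesis enzymes were measured from the first step to the last. Alas2 had 5.21 and 9.29 CPM in the libraries labelled Hhex-deleted, against 5.36 and 7.77 CPM in wild-type libraries, with replicate 2 high in each group as for the globins. The fitted log2 difference was 0.14 ± 0.34 (SE, adjusted p = 0.907 by edgeR). Alas1, the form found in most cells, had 235 and 162 CPM in the libraries labelled Hhex-deleted, against 336 and 384 CPM in wild-type libraries. The groups did not overlap, and Alas1 was the only member with both libraries labelled Hhex-deleted below both wild-type libraries. Its log2 fold change of -0.86 ± 0.19 (SE) did not pass edgeR's test (adjusted p = 0.112), while DESeq2 gave an adjusted p of 2.15e-05 and edgeR without labelled Hhex-deleted replicate 1 gave 0.00837. Over the other 10 alternatives the adjusted p of Alas1 lay between 0.0612 and 0.518. Neutrophil genes, among them Mpo and Elane, which early myeloid progenitors also express, summed to 9916 and 7346 CPM in labelled Hhex-deleted libraries, against 13918 and 17165 CPM in wild-type libraries. Most of each sum was Mpo, with 8748 and 5846 CPM in labelled Hhex-deleted libraries, against 11153 and 13052 CPM in wild-type libraries. By the test 1 of 8 (Elane) was lower, against 1.12% of all tested genes. The groups overlapped for 4 of the 8 (Ltf, Camp, Ngp and S100a9). Mpo, Elane and S100a8 were lower without overlap and Mmp8 higher, against 23.7% and 21.9% of all tested genes. The part of these genes in the Alas1 value was not tested. Per length, Alas1 exceeded Alas2 33.1-fold and 12.8-fold in the libraries labelled Hhex-deleted, against 45.9-fold and 36.2-fold in wild-type libraries.

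Among the later steps, Cpox had the largest fitted difference. Alad, which joins aminolaevulinate into the first pyrrole, had 52.4 and 56.6 CPM in the libraries labelled Hhex-deleted, against 51.9 and 49.7 CPM in wild-type libraries. Uros, which closes the porphyrin ring, had 20.7 and 19.4 CPM in labelled Hhex-deleted libraries, against 17.3 and 18.3 CPM in wild-type libraries. Their groups were separated by small gaps, and neither passed the test, with log2 fold changes of 0.10 and 0.17. Urod, the next decarboxylase, had 82.9 and 62.1 CPM in labelled Hhex-deleted libraries, against 66.4 and 66 CPM in wild-type libraries, and only labelled Hhex-deleted replicate 1 was above the wild-type libraries. Cpox, coproporphyrinogen oxidase of the mitochondrion, had 98.7 and 74 CPM in the libraries labelled Hhex-deleted, against 64.6 and 63.6 CPM in wild-type libraries. Its groups did not overlap, with a log2 fold change of 0.43 ± 0.14 (SE) that did not pass (edgeR adjusted p = 0.216). Without labelled Hhex-deleted replicate 2 it was 0.63 and passed (adjusted p = 0.0261), but it was 0.21 without labelled Hhex-deleted replicate 1. Ppox, the oxidase of the step before last, had 59.6 and 55.9 CPM in labelled Hhex-deleted libraries, against 57.2 and 55.1 CPM in wild-type libraries, a log2 fold change of 0.04. Fech, which inserts iron to make haem, had 66.6 and 51.6 CPM in labelled Hhex-deleted libraries, against 59.1 and 60 CPM in wild-type libraries, a log2 fold change of -0.01 whose sign turned under upper-quartile scaling. Slc25a38, a mitochondrial carrier that supplies glycine for the first step, had 32.6 and 28.3 CPM in labelled Hhex-deleted libraries, against 28.9 and 27.9 CPM in wild-type libraries, a log2 fold change of 0.10. Of the 9 haem synthesis members edgeR called none, and their median log2 fold change was 0.10, while DESeq2 called Alas1. At an unadjusted p under 0.05 there were 1 higher and 1 lower, against 7.59% and 8.23% of all tested genes.

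The receptors overlapped between groups. Epor had 28.2 and 13.2 CPM in the libraries labelled Hhex-deleted, against 16 and 12.6 CPM in wild-type libraries. Tfrc had 244 and 167 CPM in labelled Hhex-deleted libraries, against 226 and 210 CPM in wild-type libraries. In both genes labelled Hhex-deleted replicate 1 was the highest library, and for Tfrc labelled Hhex-deleted replicate 2 was the lowest. The log2 fold changes were 0.53 ± 0.40 for Epor and -0.09 ± 0.19 for Tfrc (SE, edgeR adjusted p = 0.657 and 0.9). In the fit without labelled Hhex-deleted replicate 1 they were -0.12 and -0.39, while leaving out labelled Hhex-deleted replicate 2 gave 0.99 and 0.17.

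All 10 membrane and skeleton genes had positive log2 fold changes, from 0.28 for Icam4 to 0.80 for Ermap with a median of 0.62. None passed edgeR's test or DESeq2's, with 2 of 10 higher at an unadjusted p under 0.05, against 7.59% of all tested genes. In 9 of the 10 labelled Hhex-deleted replicate 1 was the highest library. Ermap, a membrane protein that carries the Scianna blood group in humans, had 108 and 44.9 CPM in the libraries labelled Hhex-deleted, against 54.3 and 33.6 CPM in wild-type libraries. Aqp1, the water channel, had 253 and 126 CPM in labelled Hhex-deleted libraries, against 148 and 105 CPM in wild-type libraries. Ank1, the ankyrin that ties the skeleton to the membrane, had 34.3 and 13.7 CPM in labelled Hhex-deleted libraries, against 17.3 and 13.4 CPM in wild-type libraries. In these genes labelled Hhex-deleted replicate 1 exceeded its partner 2.4-fold, 2-fold and 2.51-fold, and the partner lay among the wild-type values. The log2 fold changes were 0.80 ± 0.61 for Ermap, 0.59 ± 0.45 for Aqp1 and 0.65 ± 0.51 for Ank1 (SE), with edgeR adjusted p-values of 0.692, 0.685 and 0.681. Add2, beta adducin of the skeleton, had 20.7 and 7.79 CPM in labelled Hhex-deleted libraries, against 11.4 and 8.72 CPM in wild-type libraries. Rhd, the mouse Rh blood group gene, had 21.1 and 9.59 CPM in labelled Hhex-deleted libraries, against 11.1 and 9.98 CPM in wild-type libraries. In both genes labelled Hhex-deleted replicate 2 was the lowest library and replicate 1 the highest. Fitted log2 fold changes were 0.50 ± 0.51 for Add2 and 0.54 ± 0.39 for Rhd (SE), with edgeR adjusted p-values of 0.761 and 0.63.

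Both libraries labelled Hhex-deleted lay above both wild-type libraries in 3 of the 10 membrane and skeleton genes, Rhag and Spnb1 among them. Over all tested genes this held for 21.9%. Rhag, the Rh-associated glycoprotein, had 21.7 and 13.7 CPM in the libraries labelled Hhex-deleted, against 10.9 and 10.7 CPM in wild-type libraries. Spnb1, beta spectrin (Sptb in RefSeq), had 20.2 and 10.6 CPM in labelled Hhex-deleted libraries, against 10.2 and 9.45 CPM in wild-type libraries, so its lower value was close to the wild-type range. The log2 fold changes were 0.71 ± 0.23 for Rhag and 0.65 ± 0.31 for Spnb1 (SE), with edgeR adjusted p-values of 0.208 and 0.423. Icam4, an adhesion molecule of red cells, had 13.3 and 10.7 CPM in labelled Hhex-deleted libraries, against 11.4 and 8.33 CPM in wild-type libraries, and its groups overlapped. Slc4a1, the band 3 anion exchanger, departed from the other membrane genes, with 11.6 and 16.4 CPM in the libraries labelled Hhex-deleted, against 8.68 and 12.9 CPM in wild-type libraries. Like the globins it was highest in labelled Hhex-deleted replicate 2, and replicate 2 was the high library of each group, with the groups overlapping. Fitted log2 fold changes were 0.28 ± 0.21 for Icam4 and 0.38 ± 0.26 for Slc4a1 (SE), with edgeR adjusted p-values of 0.637 and 0.6.

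**Figure D2:**
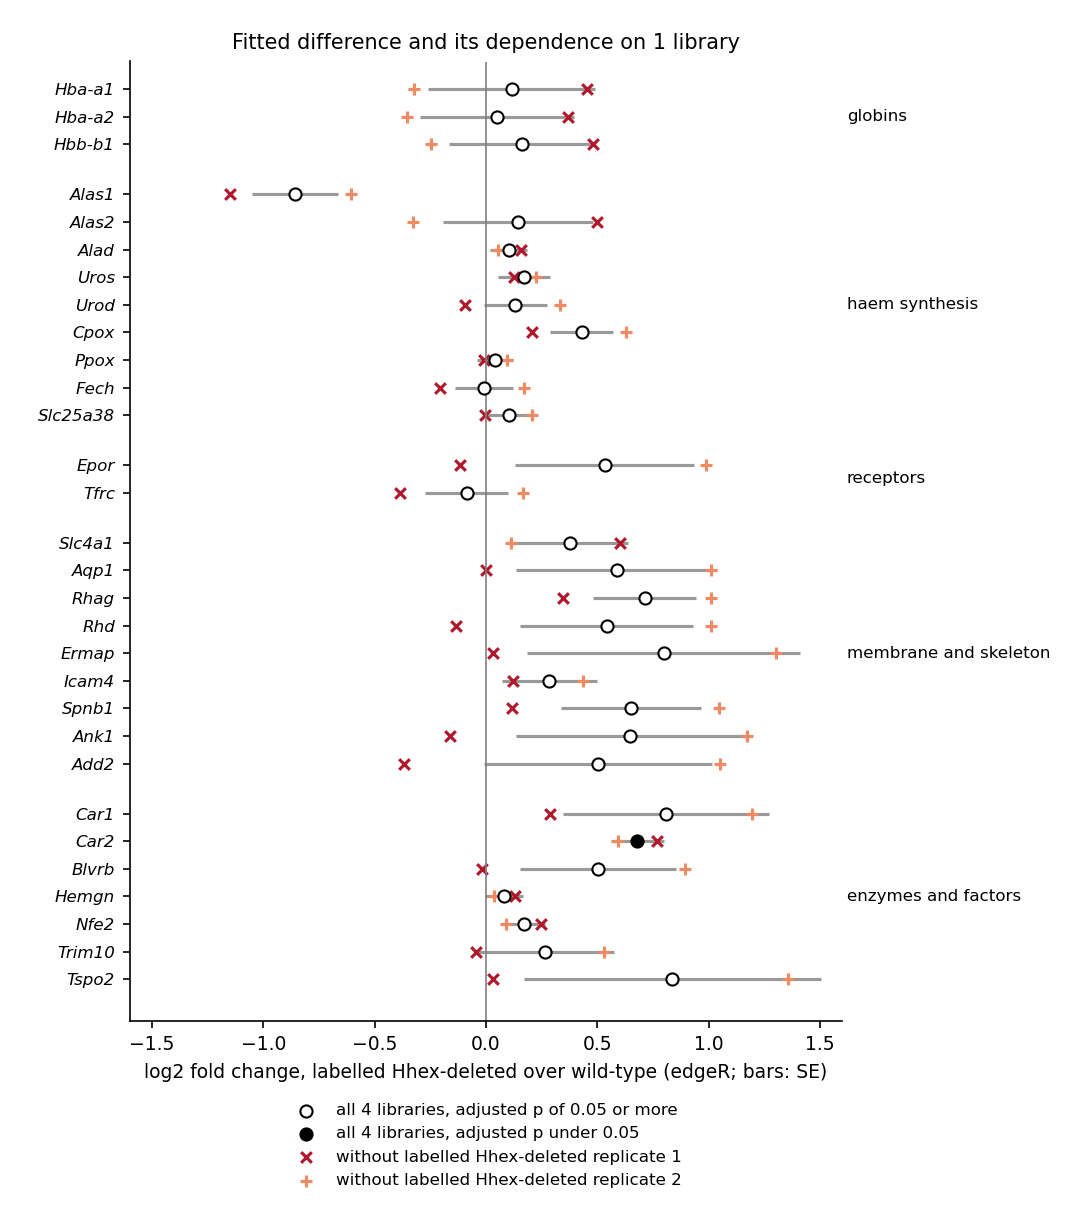
Log2 fold change of each member named in the text, labelled Hhex-deleted over wild-type, from edgeR with all 4 libraries (circles with SE bars, filled where the adjusted p is under 0.05), and from fits that leave out labelled Hhex-deleted replicate 1 (crosses) or its partner replicate 2 (plus signs). Car2 is the single filled circle, and for Add2, Ank1, Epor and Rhd the crosses lie below 0 and the plus signs near 1 or above.

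Car2, carbonic anhydrase 2, had the highest CPM of all members and was the call. It had 597 and 677 CPM in the libraries labelled Hhex-deleted, against 436 and 359 CPM in wild-type libraries. Mean levels were 637 ± 56.5 CPM in the libraries labelled Hhex-deleted and 398 ± 54.5 CPM in wild-type libraries (SD, n = 2 each). This 1.6-fold difference corresponds to a log2 fold change of 0.68 ± 0.12 (SE), with an edgeR adjusted p of 0.049. That value lies at the threshold, and it was above 0.05 whichever library was left out (from 0.0525 with wild-type replicate 1 left out to 0.203 with its partner left out) and under 6 of the other settings. DESeq2 gave 1.22e-06 and edgeR without a low-count filter 0.0259. Mast cell and basophil genes summed to 1053 and 950 CPM in the libraries labelled Hhex-deleted, against 327 and 337 CPM in wild-type libraries. By the test 5 of 8 were higher, against 1.48% of all tested genes, while Hdc had a log2 fold change of -0.50 (edgeR adjusted p = 0.438). B cell genes summed to 109 and 137 CPM in labelled Hhex-deleted libraries, against 39.1 and 44 CPM in wild-type libraries, with 6 of 8 higher beside the same 1.48%. The part of the genes of these 2 lists in the Car2 value was not tested. Car1, the carbonic anhydrase of red cells, had 341 and 183 CPM in labelled Hhex-deleted libraries, against 185 and 114 CPM in wild-type libraries, and its groups overlapped, since labelled Hhex-deleted replicate 2 was just below wild-type replicate 1. Its log2 fold change of 0.81 ± 0.46 (SE) did not pass (edgeR adjusted p = 0.569).

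The remaining enzymes and factors did not pass the test. Blvrb, a biliverdin and flavin reductase, had 50.4 and 26.9 CPM in the libraries labelled Hhex-deleted, against 30.5 and 24 CPM in wild-type libraries. Tspo2, an erythroid protein related to the mitochondrial translocator Tspo, had 15 and 6 CPM in labelled Hhex-deleted libraries, against 8.39 and 3.36 CPM in wild-type libraries, and replicate 1 was about 2.5-fold above replicate 2 in each group. The log2 fold changes were 0.50 ± 0.35 for Blvrb and 0.84 ± 0.67 for Tspo2 (SE), with edgeR adjusted p-values of 0.631 and 0.681, and the groups of both genes overlapped. Hemgn, a nuclear protein of haematopoietic cells, had 49.4 and 53.1 CPM in labelled Hhex-deleted libraries, against 47.5 and 49.4 CPM in wild-type libraries. Nfe2, a subunit of the factor that binds the globin control regions, had 262 and 294 CPM in labelled Hhex-deleted libraries, against 235 and 260 CPM in wild-type libraries. The groups of Hemgn and Nfe2 were separated by narrow gaps, with log2 fold changes of 0.08 and 0.17. Trim10, also known from terminal red cell formation in the mouse, had the lowest level of all members, with 3.05 and 2.06 CPM in labelled Hhex-deleted libraries, against 1.9 and 2.35 CPM in wild-type libraries, from 52 to 89 reads per library. Its groups overlapped, with a log2 fold change of 0.27 ± 0.31 (SE, adjusted p = 0.786 by edgeR).

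Libraries of the same group also differed in these genes. Labelled Hhex-deleted replicate 1 was the highest library for 21 of 31 members, 67.7%, against 22.7% of all tested genes. It exceeded labelled Hhex-deleted replicate 2 at least 1.2-fold for 19 members, 61.3%, against 12.9% of all tested genes. Counting genes in which replicate 1 exceeded replicate 2 at least 1.2-fold in each group gave 9 members (Epor, Aqp1, Ermap, Icam4, Ank1, Add2, Car1, Blvrb and Tspo2), 29% against 4.12% of all tested genes. The opposite order, replicate 2 at least 1.2-fold above replicate 1 in each group, held for 5 members (Hba-a1, Hba-a2, Hbb-b1, Alas2 and Slc4a1), 16.1% against 6.85% of all tested genes. These counts were made after the values were seen and carry no test. The labels do not say that a number marks a shared mouse, day or batch.

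**Figure D3:**
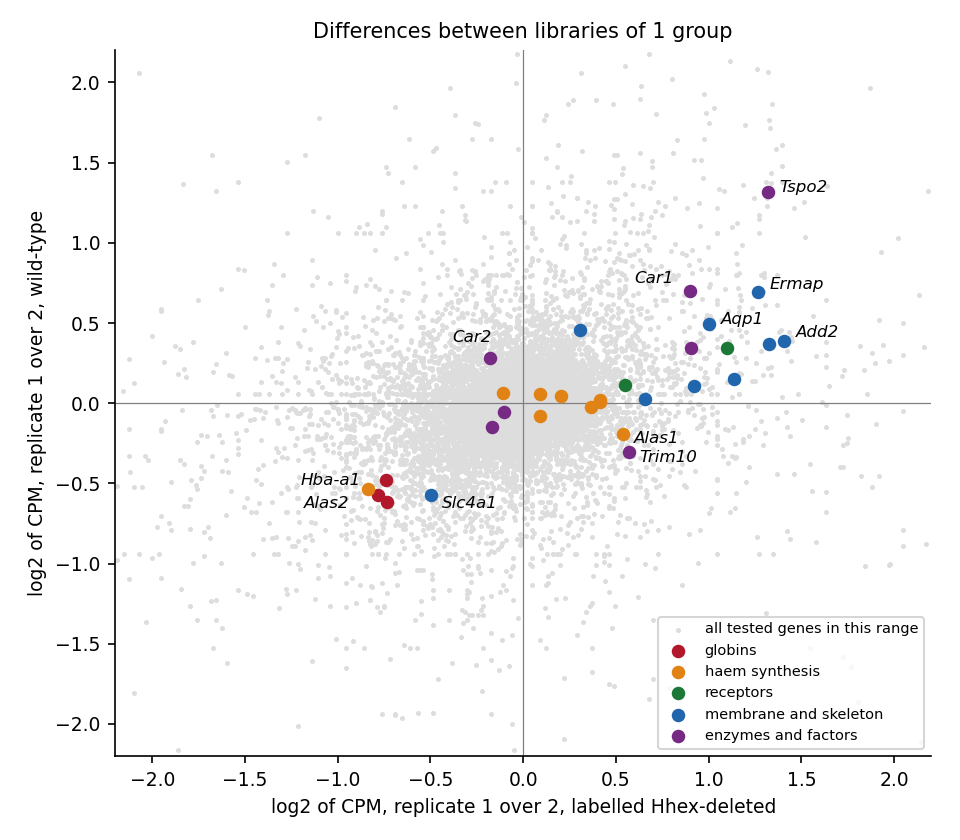
Log2 of CPM in replicate 1 over replicate 2, for the libraries labelled Hhex-deleted (x axis) and for wild-type libraries (y axis), with the members named in the text coloured by role and all tested genes within the plotted range in grey. The globins, Alas2 and Slc4a1 lie at the lower left, and 9 members, Tspo2 and Ermap among them, at the upper right.

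Some genes of other lists moved with these orders, and their part in them was not tested. Of 8 neutrophil genes 5 were also at least 1.2-fold higher in replicate 2 of each group (Ltf, Camp, Ngp, S100a8 and S100a9). So were 4 of 8 B cell genes, against 6.85% of all tested genes. Camp, a granule peptide of mature neutrophils, had 1.44 and 29.6 CPM in the libraries labelled Hhex-deleted, against 15.5 and 55.6 CPM in wild-type libraries. All 8 megakaryocyte genes were at least 1.2-fold higher in labelled Hhex-deleted replicate 1 than in its partner, against 12.9% of all tested genes. Only 2 of the 8 had replicate 1 at least 1.2-fold higher in the wild-type group too, against 4.12% of all tested genes. The 8 genes summed to 741 and 531 CPM in labelled Hhex-deleted libraries, against 524 and 467 CPM in wild-type libraries. Some stem and progenitor genes differed the other way within the labelled Hhex-deleted group. Procr had 12.7 and 35.8 CPM, Flt3 282 and 506 CPM and Hlf 139 and 249 CPM in labelled Hhex-deleted replicates 1 and 2. In wild-type replicates 1 and 2 these genes had 20.2 and 22.6 CPM (Procr), 301 and 276 CPM (Flt3) and 151 and 156 CPM (Hlf). No gene of these lists was at 0. In bulk RNA, fewer cells of a type and less RNA per cell cannot be told apart.

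The fits without 1 library followed this split. Without labelled Hhex-deleted replicate 2, 5 members passed as higher (Ank1, Cpox, Rhag, Rhd and Spnb1), against a background of 1.52% of genes higher and 0.86% lower in that fit. Without labelled Hhex-deleted replicate 1, which carries the female markers, none was higher and 1 (Alas1) was lower, against 2.4% and 1.51%. No member passed without wild-type replicate 1 (background 0.776% and 0.926%) or without wild-type replicate 2 (0.549% and 0.261%). DESeq2 called Car2 as higher and Alas1 as lower, against a background of 3.31% and 3.32%. A fit without 1 library assumes that the lone library of a group varies like those of the other group. The median log2 fold change of the members was 0.44 without labelled Hhex-deleted replicate 2, but 0.12 without labelled Hhex-deleted replicate 1.

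Other genes of red cell, haem and iron biology were taken from 5 lists, of which 79 genes were tested. Of these 3 rose (Hmox1, Gfi1b and Tal1) and none fell, against 2.6% called of all tested genes. At an unadjusted p under 0.05 there were 14 higher and 5 lower of 79, against 7.59% and 8.23% of all tested genes, and the median log2 fold change was 0.06. Hmox1, haem oxygenase 1, which breaks down haem and is induced by it, had 20.6 and 22.2 CPM in the libraries labelled Hhex-deleted, against 8.61 and 8.4 CPM in wild-type libraries. Its log2 fold change was 1.33 ± 0.13 (SE), a 2.51-fold rise, with an edgeR adjusted p of 0.0126. The call of Hmox1 held in all 12 alternatives, with adjusted p-values of 1.1e-09 for DESeq2 to 0.0489 for the deposited log2 RPKM values. Hmox1 is also known from macrophages. Of 8 monocyte and macrophage genes 3 were higher and 1 lower, against 1.48% and 1.12% of all tested genes. The 8 genes summed to 125 and 92.1 CPM in labelled Hhex-deleted libraries, against 183 and 205 CPM in wild-type libraries. The 3 were C1qa, C1qb and C1qc, and C1qa had 7.47 and 6.2 CPM in labelled Hhex-deleted libraries, against 1.75 and 1.09 CPM in wild-type libraries. Vcam1 was the gene called lower, with 22.3 and 23.4 CPM in labelled Hhex-deleted libraries, against 54.1 and 74.9 CPM in wild-type libraries. Csf1r, Ly86 and Cd68 were also lower without overlap, as were 23.7% of all tested genes, and did not pass. The part of these 8 genes in the Hmox1 value was not tested.

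Among 17 erythroid transcription factor genes 2 rose and none fell, against 1.48% and 1.12% of all tested genes. Tal1, a factor required for blood formation, had 218 and 233 CPM in the libraries labelled Hhex-deleted, against 159 and 159 CPM in wild-type libraries, which is 0.50 ± 0.08 on the log2 scale (SE, adjusted p = 0.0339 by edgeR). Gfi1b, a repressor of erythroid and megakaryocyte cells, had 80.6 and 61.5 CPM in labelled Hhex-deleted libraries, against 39.7 and 34.2 CPM in wild-type libraries, which is 0.94 ± 0.15 on the log2 scale (SE, adjusted p = 0.0421 by edgeR). In both genes the groups were apart, but each call was lost without either wild-type library, with adjusted p-values of 0.135 and 0.184 for Tal1 and 0.0853 and 0.191 for Gfi1b, and that of Tal1 also without labelled Hhex-deleted replicate 2 (0.0619). Neither gene passed with limma-voom (0.0543 for Tal1 and 0.0738 for Gfi1b) or on the deposited log2 RPKM values (0.139 and 0.149, by limma). Gata1 and Klf1, central activators of erythroid genes, stood at 76.2 and 51.6 CPM in labelled Hhex-deleted libraries, against 42.4 and 32.3 CPM in wild-type libraries, and at 41 and 22.7 CPM in labelled Hhex-deleted libraries, against 20.7 and 17.3 CPM in wild-type libraries, and did not pass (edgeR adjusted p = 0.221 and 0.366). Other genes of the list went the other way. Spi1 had 136 and 117 CPM in labelled Hhex-deleted libraries, against 172 and 187 CPM in wild-type libraries. Sox6 had 25.5 and 19.4 CPM against 29.3 and 39.8 CPM, and neither passed (edgeR adjusted p = 0.0653 and 0.212). Of the 17 genes 5 were higher and 2 lower (Spi1 and Sox6) at an unadjusted p under 0.05, against 7.59% and 8.23% of all tested genes.

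**Figure D4:**
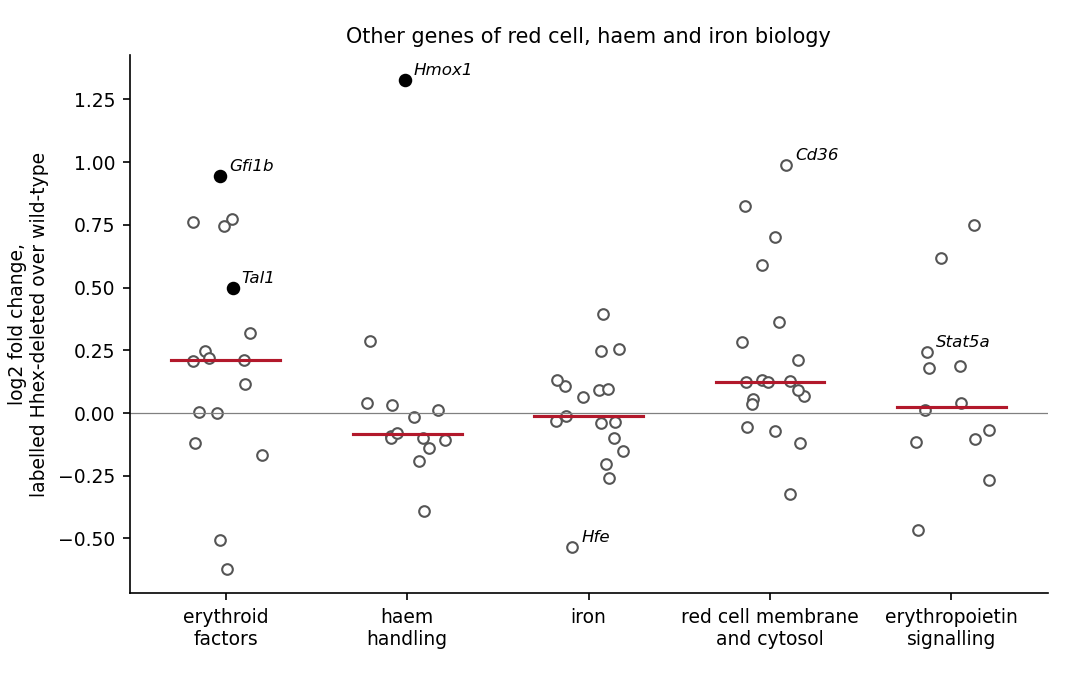
Log2 fold change, labelled Hhex-deleted over wild-type, of the tested genes in 5 lists of red cell, haem and iron biology, with filled points for genes past an edgeR adjusted p of 0.05 and a red line at each list's median. Points are spread sideways for legibility, and Hmox1, Gfi1b and Tal1 are the 3 filled points.

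Outside these factors Hmox1 was the single call. Of 14 tested genes of haem handling 1 rose, Hmox1. Of 17 iron genes none passed, and the smallest unadjusted p was that of Hfe, which modulates iron uptake, with 11.9 and 11.1 CPM in labelled Hhex-deleted libraries, against 15.3 and 18 CPM in wild-type libraries (edgeR adjusted p = 0.148). Of 19 tested genes of the red cell membrane and cytosol none passed, and Cd36, a scavenger receptor that early erythroid cells also carry, came nearest with 3.8 and 5.14 CPM in labelled Hhex-deleted libraries, against 2.19 and 2.31 CPM in wild-type libraries (edgeR adjusted p = 0.122). Of 12 genes of erythropoietin signalling none passed, and Stat5a, a factor activated by the receptor, had 168 and 165 CPM in labelled Hhex-deleted libraries, against 139 and 143 CPM in wild-type libraries (edgeR adjusted p = 0.173). In these 3 lists the counts at an unadjusted p under 0.05 were 1 higher and 1 lower for iron, 4 higher and 1 lower for the membrane and cytosol, and 2 higher and 0 lower for erythropoietin signalling, where 7.59% and 8.23% of all tested genes passed that cut. Over all 5 lists, with 79 tested genes, DESeq2 called 7 higher and 2 lower, against 3.31% and 3.32% of all tested genes. Calls by limma-voom were 1 higher and 0 lower, where 123 and 79 of all 14912 tested genes were called.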

How the data were processed

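RNA of sorted LSK cells was made into TruSeq RNA libraries, per the labels' protocols. The authors deposited unnormalised counts of reads for each Entrez gene beside its length, and log2 RPKM values per library. Tools and build come from the submitters' processing notes, which list featureCounts, limma, Subread and mm9. The strand setting and the treatment of reads that match several genes are not given here. The count table was fitted with edgeR 4.0.16 in R 4.3.3: filterByExpr by group (minimum count 10, minimum total 15), TMM factors, a robust quasi-likelihood fit with group as its single term and a prior count of 0.125, and adjustment over 14912 genes. SEs were taken as the absolute fitted log2 value divided by the square root of F. The biological coefficient of variation was 16.3%, and 3 counts corresponded to 0.0995 to 0.109 CPM. Every pair of libraries differed by a chi-square of 28.5 or more per degree of freedom, so none was a duplicate. DESeq2 1.42.0, limma 3.58.1, other scalings and filters, fits without each library and a replicate term were alternatives, and the edgeR step was tested on simulated data. Gene symbols are those of the log2 RPKM files, completed from RefSeq (GRCm38.p6), and promoters from RefSeq GRCm38.p6, a build other than the authors'. Members are described by name, apart from an item that is not reported here, and of the other lists each called gene and the gene of smallest p. Gata1, Klf1, Spi1, Sox6, Camp, C1qa, Procr, Flt3 and Hlf were chosen after their values were seen. The members and lists were chosen with earlier results of these data known. Antisense and overlapping genes cannot be told apart without strand.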

Additional observations from a re-analysis of the deposited data

How the results depend on the processing

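Settings were varied separately, but the fits without 1 library were filtered anew (15232 to 15343 genes), and the log2 RPKM values bring another test and gene set (12662 genes). Over all genes, 221 were called higher and 167 lower for the labelled Hhex-deleted group, and DESeq2 gave 493 and 495, limma-voom 123 and 79, limma on the deposited log2 RPKM values 38 and 6, and the fits without 1 library 84 to 366 and 40 to 231, while 272 were lower with no low-count filter. Among the members, 1 was higher and 0 lower. No member was higher with limma-voom, RLE factors, upper-quartile factors, a minimum of 1 CPM or the log2 RPKM values, and 0 to 5 were without 1 library. DESeq2 called 1 member lower, as did the fit without labelled Hhex-deleted replicate 1 (range 0 to 1). In the 5 other lists, 3 were higher and 0 lower, against 7 and 2 with DESeq2, 1 and 0 with limma-voom and with the log2 RPKM values, 2 lower with no low-count filter, and 1 to 4 higher and 0 to 1 lower without 1 library. With a term for the replicate number (replicate block) the calls over all genes were 185 higher and 130 lower, 5 were higher in the other lists, and among the members Car1 passed (adjusted p = 0.0364) and Car2 did not (0.094). The numbers are shared by the labels alone: over 14912 genes the replicate 1 minus replicate 2 differences of the groups correlated at r = 0.326, with genes not independent and 2 pairs of libraries.

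Without 1 library the sign of the log2 fold change turned for 16 members. The values ran from -0.37 to 1.05 for Add2, -0.33 to 0.50 for Alas2, -0.16 to 1.17 for Ank1, -0.0014 to 1.01 for Aqp1, -0.020 to 0.89 for Blvrb, -0.12 to 0.99 for Epor, -0.21 to 0.17 for Fech and -0.32 to 0.45 for Hba-a1. They ran from -0.36 to 0.40 for Hba-a2, -0.25 to 0.48 for Hbb-b1, -0.0070 to 0.093 for Ppox, -0.14 to 1.01 for Rhd, -0.0038 to 0.21 for Slc25a38, -0.39 to 0.17 for Tfrc, -0.046 to 0.53 for Trim10 and -0.093 to 0.33 for Urod. The log2 fold change of Fech was also 0.010 with upper-quartile factors. The cause was not tested. Each member had 52 to 20412 reads per library, and with 2 libraries a group the SE of the log2 fold change reached 0.67 (Tspo2).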

Other observations

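Another row of the count table, Hbb-bs in RefSeq, held further beta globin reads and was looked at after the member values were seen. It had 58.7 and 102 CPM in the libraries labelled Hhex-deleted, against 62.7 and 88.8 CPM in wild-type libraries, the same order of libraries as Hbb-b1. The ratio of alpha globin reads (Hba-a1 and Hba-a2) to beta globin reads (Hbb-b1 and Hbb-bs) was 1.11 and 1.11 in the libraries labelled Hhex-deleted, against 1.09 and 1.16 in wild-type libraries. The globin reads together made up 0.0263% and 0.0464% of all counts in the libraries labelled Hhex-deleted, against 0.0267% and 0.0393% in wild-type libraries. In GENCODE the transcripts of Hbb-bs and Hbb-bt are 93.6% identical over 609 aligned bases, so reads of these copies cannot be assigned with certainty. A transcript named Hbb-b1 was not aligned, and how reads split between Hbb-b1 and Hbb-bs was not tested.

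The embryonic globins were nearly absent. Hbb-bh1 and Hba-x had 0 reads in every library, which allows up to 3 counts, or 0.0995 to 0.109 CPM, for counting error only. Hbb-y was seen in 2 and 0 reads of the libraries labelled Hhex-deleted, against 0 and 1 reads of wild-type libraries. Aqp3, a water and glycerol channel, had 2 and 3 reads in labelled Hhex-deleted libraries, against 0 and 0 reads in wild-type libraries.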
